A study of Mus musculus with 8 samples.

Results

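Translation factors are the proteins that bring ribosomes to messenger RNA, find the start codon and drive each step of peptide synthesis. The genes described here were chosen by name alone: every gene symbol of the deposited tables that begins with Eif1 to Eif6 or with Eef1 or Eef2, leaving out Eif2s3x and Eif2s3y. This gave 62 genes among the 24394 symbols that the 8 tables share, and it takes in kinases, binding proteins and a methyltransferase that carry these names. The samples were endothelial cells of mouse brain, collected by flow cytometry at postnatal day 8, with 4 libraries in each of 2 groups, each built from 500 ng of total RNA. WT libraries came from wild-type mice. YT-ECKO libraries (YAPTAZ-ECKO in the labels) came from mice with VE-cadherin-CreERT2, a Cre recombinase that tamoxifen switches on in cells using the VE-cadherin promoter, and with floxed Yap and Taz on both chromosomes (genotype Yapf/f Tazf/f). The labels give C57BL/6J as the strain of both groups, and state neither the tamoxifen schedule nor whether every library stands for a separate animal. The p-values therefore rest only on the variation among these 8 libraries, which may be technical. The WT label names neither Cre nor floxed alleles, so the driver, the alleles and the deletion cannot be told apart. The comparison asks which transcripts of early postnatal brain endothelium differ when the transcriptional co-activators YAP and TAZ are targeted in these cells.

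Initiation begins when eIF2, carrying GTP and the initiator tRNA, joins the small ribosomal subunit with eIF1, eIF1A, eIF3 and eIF5. The cap-binding complex eIF4F, made of the cap-binding protein eIF4E, the scaffold eIF4G and the helicase eIF4A, loads this assembly onto the messenger RNA, and the 4E-binding proteins restrain it until the kinase complex mTORC1 phosphorylates them. Stress kinases phosphorylate eIF2 and so block its exchange factor eIF2B, while eEF1A, its exchange subunits and eEF2 carry out elongation. Many elongation factor and ribosomal protein messenger RNAs start with a 5′ terminal oligopyrimidine tract (TOP), a C followed by further pyrimidines, through which mTORC1 controls their translation as a group.

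The start sites of several members are shown because the TOP tract is the feature that several of them are known to share with ribosomal protein genes, and because 2 of the other genes, Eef1e1 and Eif4e, are among the 3 whose WT and YT-ECKO values did not overlap. Each line gives 30 bases before and 25 bases from the RefSeq start site (GRCm38.p6), read 5′ to 3′ on the gene's strand. Capitals mark the longest run made of a C and at least 4 further pyrimidines that lies between 20 bases before and 25 bases after the start.
Eif3f, TOP list, chr7:108934385-108934439, plus strand: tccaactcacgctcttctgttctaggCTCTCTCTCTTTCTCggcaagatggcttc
Eef1a1, TOP list, chr9:78481700-78481754, minus strand: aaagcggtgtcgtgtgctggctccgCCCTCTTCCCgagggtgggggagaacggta
Eef2, TOP list, chr10:81176601-81176655, plus strand: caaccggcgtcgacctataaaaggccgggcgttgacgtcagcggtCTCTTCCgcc
Eif4b, TOP list, chr15:102073743-102073797, plus strand: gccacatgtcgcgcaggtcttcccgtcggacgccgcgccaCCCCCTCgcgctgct
Eef1b2, TOP list, chr1:63176801-63176855, plus strand: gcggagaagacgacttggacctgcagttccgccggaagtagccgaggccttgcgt
Eef1e1, chr13:38659004-38659058, minus strand: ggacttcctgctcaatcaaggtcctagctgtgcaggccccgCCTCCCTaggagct
Eif4e, chr3:138526161-138526215, plus strand: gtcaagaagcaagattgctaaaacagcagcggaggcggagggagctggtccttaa

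The run was 15 bases long in Eif3f and 10 in Eef1a1, and in both it spans the RefSeq start site. Whether either run is the TOP tract of the messenger RNA was not tested. It was 7 bases long in each of Eef2, Eif4b and Eef1e1. Neither Eef1b2 nor Eif4e held one in this window. Such a run of at least 5 bases was common, present at 53.3% of the 27025 genes with a RefSeq window, at 22 of the 48 members that have one (45.8%) and at 4 of the 5 TOP list members that have one. A run is a match of letters and not a mapped tract, since RefSeq start sites may differ from those used in endothelium. TEAD factors, the DNA-binding partners of YAP and TAZ, are known to bind the letters GGAATG. Searched on both strands from 250 bases before to 50 bases after the start site, these letters were present in 5 of the 48 members (10.4%), Eef2k, Eif2ak3, Eif2b5, Eif3b and Eif3f, against 16.6% of all 27025 genes. These matches are letters in a window, not binding sites.

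Values are scaled reads, the authors' log2 values returned to the linear scale, on which every library sums to about the same total (10.3 M to 10.9 M). Judged by the steps between low values, 6.66 M reads (YT-ECKO 1) to 16.8 M reads (WT 1) lay behind them. The targeted genes were lower in every YT-ECKO library: Wwtr1, which encodes TAZ, stood at 348 to 2608.5 scaled reads against 5650 to 8220 in WT, and Yap1 at 9.29 to 605 against 1409 to 2833. All 12 endothelial markers examined were above 0 in all 8 libraries, and their summed level ranged from 97114 to 116198 scaled reads in WT and from 96816 to 125939 in YT-ECKO. Of the other cell types the sort could hold, erythroid markers were the most abundant, summing to 17753 to 49654 scaled reads in WT and 17869 to 60042 in YT-ECKO, sums in which 3 pairs of hemoglobin genes with identical values are each counted as 2 genes. The summed choroid plexus markers reached 4841 (WT 1, mostly Ttr), the neuron markers 1896 (YT-ECKO 1) and the mural markers 1821, and 5 of 6 leukocyte markers, Ptprc among them, were listed at 0 in every library. The part of these cells in the values below was not tested.

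Translation factors together took 1.04% to 1.26% of the scaled reads of a WT library and 1.04% to 1.19% of a YT-ECKO library. Their summed level was 117869 ± 5715 scaled reads in YT-ECKO and 125053 ± 10371 in WT (SD, n = 4 each), and the groups overlapped. WT 1 to 4 held 121993, 127415, 113004 and 137802, and YT-ECKO 1 to 4 held 122725, 110841, 115588 and 122321. In bulk RNA of this kind, fewer cells of a type and less RNA per cell cannot be told apart.

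Of the 62 genes, 41 were above 0 in all 8 libraries, and 56 were tested, having reached 10 scaled reads in 4 or more libraries. Per kilobase of exon, Eef2 had the highest level with 5261 scaled reads, followed by Eef1a1 with 4876, Eif5a with 4551, Eif2s2 with 1646 and Eif4g2 with 1392 (means over the 8 libraries). The labels do not settle whether reads cover whole transcripts or their 3′ ends, and division by length would understate long transcripts in the second case. The 6 genes not tested were Eef1a2 and Eif4e1b, listed at 0 in all 8 libraries, Eif5a2, with 7.33 scaled reads in WT 1 and 0 elsewhere, and Eif2b1, Eif4ebp1 and Eif4ebp3. Eif3j1 and Eif3j2 carried identical values in every library, so the tables hold 61 separate measurements and reads of these near-identical copies cannot be assigned to either. The number of members above 0 was 55 or 56 in WT libraries and 50, 52, 56 and 53 in YT-ECKO 1 to 4. Over all genes, 8621 to 9720 were above 0 in WT libraries and 7538 to 8762 in YT-ECKO libraries. YT-ECKO 1 had the fewest members and genes above 0 and the fewest implied reads (6.66 M). The part of depth in these counts was not tested.

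No translation factor passed the test between the groups. Of the 56 tested, 0 had an adjusted p under 0.05 (limma, Benjamini-Hochberg over 8706 genes; lowest 0.764; voom also called 0), against 3 of all tested genes, a background of 0.0345%. At an unadjusted p under 0.05 there were 3 members (5.36%), Eef1d and Eef1e1 with lower and Eif2b4 with higher values in YT-ECKO, against a background of 5.47%. The groups did not overlap for 3 members, Eef1d, Eef1e1 and Eif4e, each lower in YT-ECKO (5.36% of the members tested, against 2.07% of all tested genes), and for 0 members in the higher direction (background 1.33%). Values were lower in YT-ECKO for 31 of 56 members and higher for 25, which is 55.4% lower against 56.9% of all tested genes, and the median log2 difference was -0.11 against -0.09 for all tested genes. These shares lay near the background, apart from that of genes without overlap and lower values, which rests on 3 genes. Of these, Eef1e1 passed the filter through the WT libraries, where it was higher. A filter of 100 scaled reads in 4 libraries left Eef1e1 out and 2 members without overlap. Log2 differences here and below are YT-ECKO minus WT on the log2 scale after adding a pseudocount of 2 to the power of 7 scaled reads, which understates the change of genes with low values.

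**Figure D1:**
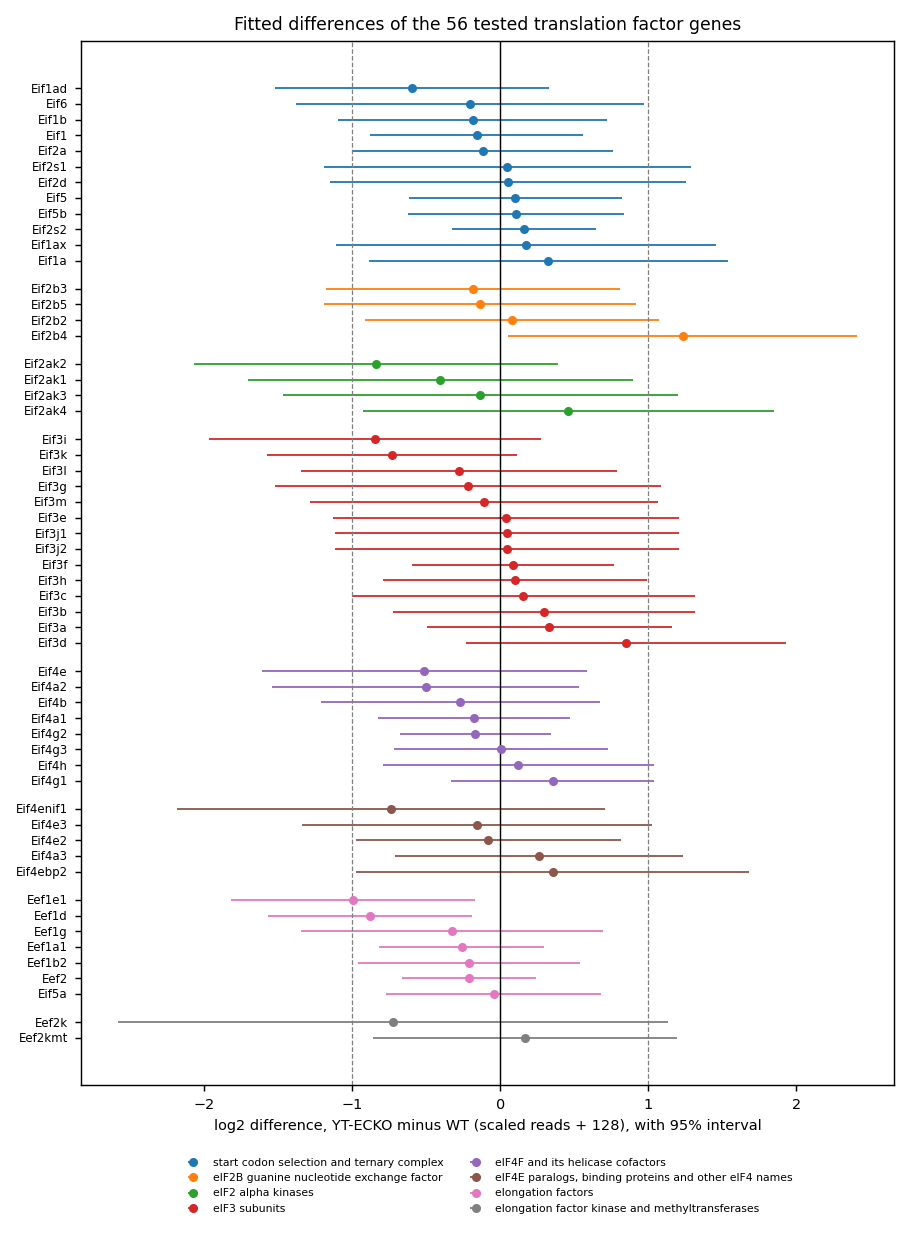
Fitted log2 difference (YT-ECKO minus WT, horizontal axis) of each of the 56 tested translation factor genes, coloured by role; bars are 95% intervals, and dashed lines mark a 2-fold difference in either direction. Intervals of 53 genes cross 0, and those of Eef1d, Eef1e1 and Eif2b4 do not before adjustment for the number of genes.

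The precision of the comparison differed between abundant and scarce members. The 95% interval extended from the estimate by a median of 0.72 in each direction on the log2 scale for the 20 members averaging 1000 scaled reads or more, and 1.02 for all 56. For 14 of these 20 the interval lay wholly within a 2-fold difference in either direction: Eef1a1, Eef1b2, Eef2, Eif1, Eif2s2, Eif3f, Eif3h, Eif4a1, Eif4e2, Eif4g2, Eif4g3, Eif5, Eif5a and Eif5b. The 6 others were Eef1d, Eif3a, Eif3k, Eif4a2, Eif4g1 and Eif4h. Over all 56 members 15 intervals lay within 2-fold, so for the other 41 a 2-fold difference was within the interval of the fit.

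All 7 tested genes listed as elongation factors had lower fitted values in YT-ECKO, against 56.9% of all tested genes. Their median log2 difference was -0.26, against -0.09 for all tested genes, and ranged from -0.42 without WT 3 to -0.13 without YT-ECKO 3. The 7 included Eef1e1, known as a scaffold of the multi-tRNA synthetase complex, which passed the filter through the WT libraries. The 7 stayed on that side under each alternative scaling tried, while Eif5a turned to higher values without WT 1, YT-ECKO 2 or YT-ECKO 3. The fitted log2 difference of Eif5a was near 0, at -0.04 ± 0.35 (SE). Its mean was higher in YT-ECKO, with 11371 scaled reads against 10265 in WT. None passed the test. Their summed level was 43694 ± 6776 scaled reads in YT-ECKO and 50085 ± 6181 in WT (SD, n = 4 each), and the groups overlapped.

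Eef1d encodes the delta subunit of eEF1B, the complex that recharges eEF1A with GTP. It stood at 4020.1, 4451, 2663 and 4226 scaled reads in WT 1 to 4 and at 2044, 2404, 1818 and 1756 in YT-ECKO 1 to 4. The highest YT-ECKO library lay under the lowest WT library, WT 3. The log2 difference was -0.88 ± 0.33 (SE; limma, unadjusted p of 0.0141 and adjusted p of 0.764). Eef1d (chromosome 15, 75894205 to 75909556, minus strand, GRCm38) shares exon bases with the neighbouring gene Naprt, and how shared reads were counted is not stated in the labels. The gamma and beta subunits of the same complex overlapped between the groups. Eef1g stood at 1241, 589, 477 and 1611 scaled reads in WT and at 944, 627, 329 and 1004 in YT-ECKO. Eef1b2 stood at 2126, 3385, 1838 and 3756 in WT and at 3295, 1609, 1902 and 2658 in YT-ECKO. Their log2 differences were -0.33 ± 0.50 and -0.21 ± 0.37 (SE), both with a limma adjusted p of 0.990.

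Eef1e1 encodes a protein named after eEF1B that is known as a scaffold of the multi-tRNA synthetase complex (AIMP3). It stood at 95.2, 288, 151 and 80.6 scaled reads in WT 1 to 4. YT-ECKO 3 held 36.1, and the other 3 YT-ECKO libraries were listed at 0. The groups did not overlap, but every value was low, and the gene passed the filter through the WT libraries. The log2 difference was -0.99 ± 0.40 (SE; limma, unadjusted p of 0.0203 and adjusted p of 0.823). Eef1e1 lies on chromosome 13, 38644207 to 38659058, minus strand.

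**Figure D2:**
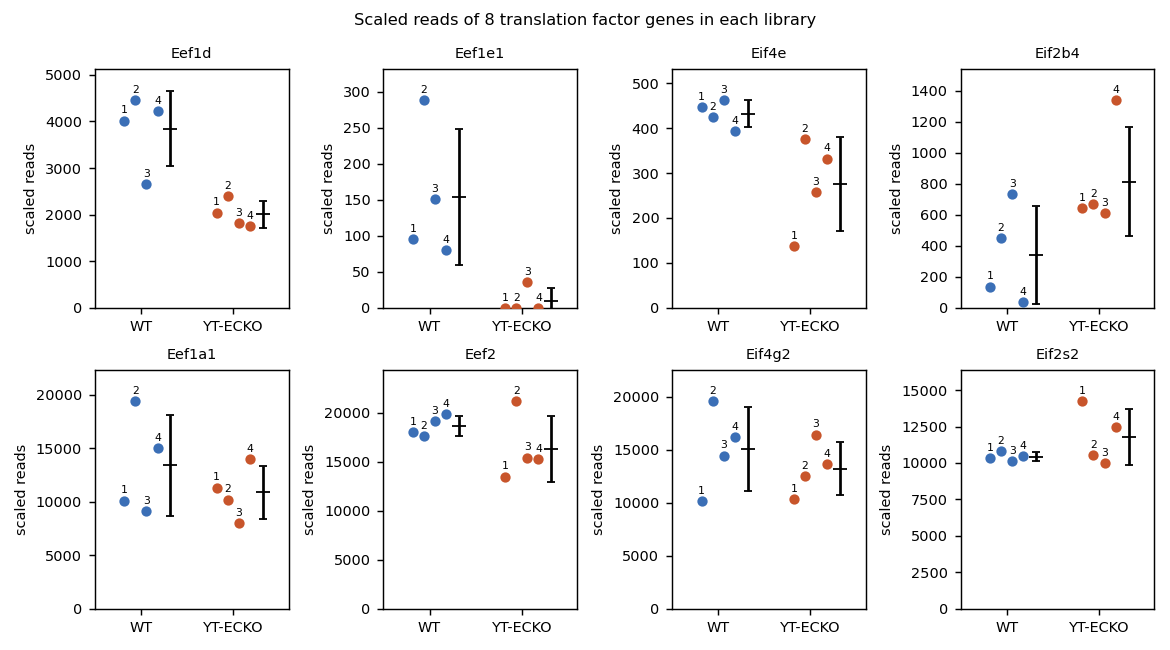
Scaled reads (vertical axis, linear, from 0) of 8 translation factor genes in each WT (blue) and YT-ECKO (orange) library; numbers are replicate numbers, and black bars are the mean with 1 SD, ending at 0 for Eef1e1 in YT-ECKO. Eef1d, Eef1e1 and Eif4e do not overlap between the groups, and the other 5 genes do.

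The abundant elongation factors overlapped between the groups. Eef2, the GTPase that moves the ribosome along by one codon, stood at 18029, 17584, 19123 and 19866 scaled reads in WT and at 13484, 21159, 15414 and 15234 in YT-ECKO. YT-ECKO 2 was the highest of all 8 libraries and the other 3 YT-ECKO libraries were the lowest, and the log2 difference was -0.21 with a 95% interval from -0.66 to 0.24. Eef1a1, which delivers aminoacyl-tRNA to the ribosome, stood at 10120.5, 19389.7, 9140.1 and 15024 in WT and at 11331, 10205, 8035 and 14008 in YT-ECKO. Its log2 difference was -0.26 with an interval from -0.82 to 0.30. Eef1a1 has many processed copies in the genome, and the labels do not say how reads that match several places were treated. Its paralog Eef1a2, known from neurons and muscle, was listed at 0 in every library.

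Eif5a encodes the hypusine-bearing factor that helps ribosomes through difficult peptide bonds. Its YT-ECKO values held both the highest and the lowest of the 8 libraries, 19824, 4387, 8416 and 12855 scaled reads, against 12459.9, 9378, 8817 and 10405 in WT. Eef2k encodes the kinase that inactivates eEF2. It stood at 103, 408, 1484 and 1023 in WT and at 0, 1091, 1377 and 3.46 in YT-ECKO, a log2 difference of -0.72 ± 0.87 (SE), the widest error among the 56 genes. Eef2kmt, an eEF2 lysine methyltransferase gene, stood at 881 ± 467 in WT and 1019 ± 543 in YT-ECKO (SD, n = 4 each).

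Among the factors of start codon selection and the eIF2 ternary complex, 12 of 12 were tested, 5 with lower and 7 with higher values, and the median log2 difference was 0.05. The balance was reversed, with 7 lower, at a pseudocount of 1 or 16 or with voom (medians -0.19, -0.16 and -0.18) and without WT 1 or YT-ECKO 4, and 8 were lower without WT 2. Eif2s2, which encodes eIF2 beta, was the steadiest in WT with 10326, 10832, 10120.5 and 10456 scaled reads. In YT-ECKO it stood at 14224, 10550.3, 9995 and 12451, with both the highest and the lowest library of the 8, and its 95% interval ran from -0.33 to 0.65. Eif2s1, which encodes the phosphorylated alpha subunit, was scarcer and overlapped widely, with 58.0 to 385 in WT and 2.28 to 344 in YT-ECKO.

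Eif1, which guards the choice of start codon, stood at 2574 ± 549 scaled reads in WT and 2310.4 ± 596 in YT-ECKO (SD, n = 4 each). Its paralog Eif1b stood at 973 ± 175 and 867 ± 309. Eif1ad, named for an eIF1A-like domain, had the smallest p of this group, with 1321, 839.9, 827 and 1328 in WT against 839, 839, 622 and 407 in YT-ECKO. YT-ECKO 1 and 2 lay above WT 3, and the log2 difference was -0.59 ± 0.45 (SE; limma, adjusted p of 0.981). Eif5, which encodes the GTPase-activating protein of eIF2, stood at 2253 ± 484 in WT and 2410.3 ± 411 in YT-ECKO, and Eif5b, which encodes the GTPase of subunit joining, at 2241 ± 578 and 2425 ± 629. Eif1a and Eif1ax, which encode eIF1A, and Eif2a and Eif2d, which encode alternative initiator tRNA carriers, were each listed at 0 in 2 or 3 libraries.

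The exchange factor eIF2B held the 1 member with a higher value at an unadjusted p under 0.05. Eif2b4, the delta subunit, stood at 136, 451, 735 and 35.8 scaled reads in WT and at 642, 668, 610.1 and 1337 in YT-ECKO. WT 3 lay above 3 of the 4 YT-ECKO libraries, so the groups overlapped. Its unadjusted p was above 0.05 without a filter and when WT 1, WT 4 or either of YT-ECKO 2 and YT-ECKO 4 was left out. The log2 difference was 1.23 ± 0.57 (SE; limma, unadjusted p of 0.0411 and adjusted p of 0.882). Eif2b4 (chromosome 5, 31187558 to 31193430, minus strand) shares exon bases with Snx17 on the other strand, and the labels do not say whether counting used strand. The other tested subunits had smaller differences on both sides of 0. Eif2b2 stood at 972 ± 548 in WT and 993 ± 407 in YT-ECKO, and Eif2b5, the catalytic subunit, at 528 ± 258 and 439.8 ± 54.7 (SD, n = 4 each). Eif2b3 had log2 difference -0.19 ± 0.48 (SE). Eif2b1 was above 0 in WT 2, WT 3 and YT-ECKO 1 (132, 46.8 and 686) and was not tested.

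All 4 eIF2 alpha kinases were tested, 3 with lower and 1 with higher values, and none passed. Eif2ak3 (PERK, activated by unfolded protein in the endoplasmic reticulum) stood at 244, 159, 483 and 602 scaled reads in WT and at 3.13, 717, 918 and 156 in YT-ECKO, so that YT-ECKO held both extremes. Eif2ak4 (GCN2, activated by amino acid shortage) stood at 155, 235, 0 and 477 in WT and at 0, 404, 1087 and 216 in YT-ECKO. Eif2ak2 (PKR, activated by double-stranded RNA) stood at 493, 314, 403 and 719 in WT and at 591, 293, 183 and 0 in YT-ECKO. Its log2 difference was -0.84 with a 95% interval from -2.07 to 0.39. Eif2ak1, the heme-regulated kinase, stood at 354 ± 273 in WT and 200.3 ± 163 in YT-ECKO (SD, n = 4 each).

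The eIF3 complex, the platform between the small subunit and eIF4F, had 14 genes tested, 5 with lower and 9 with higher values, and a median log2 difference of 0.05. This balance turned on single libraries: 10 of 14 were lower without YT-ECKO 4 (median -0.24) and 8 without WT 3 (median -0.077). Its largest differences pointed both ways. Eif3k stood at 1864, 1856, 2032 and 5777 scaled reads in WT and at 2039.5, 1719, 1464 and 920.3 in YT-ECKO, which fitted as -0.73 ± 0.41 on the log2 scale (SE; limma, adjusted p of 0.951). WT 4 stood far above the other libraries. Eif3i stood at 689, 655, 507 and 1379 in WT and at 90.9, 408, 381 and 858 in YT-ECKO (-0.84 ± 0.54, SE). Eif3d, a subunit that can itself bind the cap, stood at 198, 414, 663 and 608 in WT and at 1383, 660.3, 381 and 1679.7 in YT-ECKO (0.85 ± 0.52, SE). In each of these 3 genes the groups overlapped.

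Eif3f, the eIF3 gene with the most scaled reads before division by length, stood at 2848 ± 725 in WT and 2963 ± 287 in YT-ECKO (SD, n = 4 each), with a 95% interval of the log2 difference from -0.60 to 0.77. The core subunits Eif3a and Eif3b stood at 1278 ± 470.2 and 729.9 ± 305 in WT and at 1603 ± 337 and 949 ± 534 in YT-ECKO. Eif3c, Eif3e, Eif3g, Eif3h, Eif3l and Eif3m had log2 differences between -0.28 and 0.16, and the single measurement for Eif3j1 and Eif3j2 had 0.05.

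**Figure D3:**
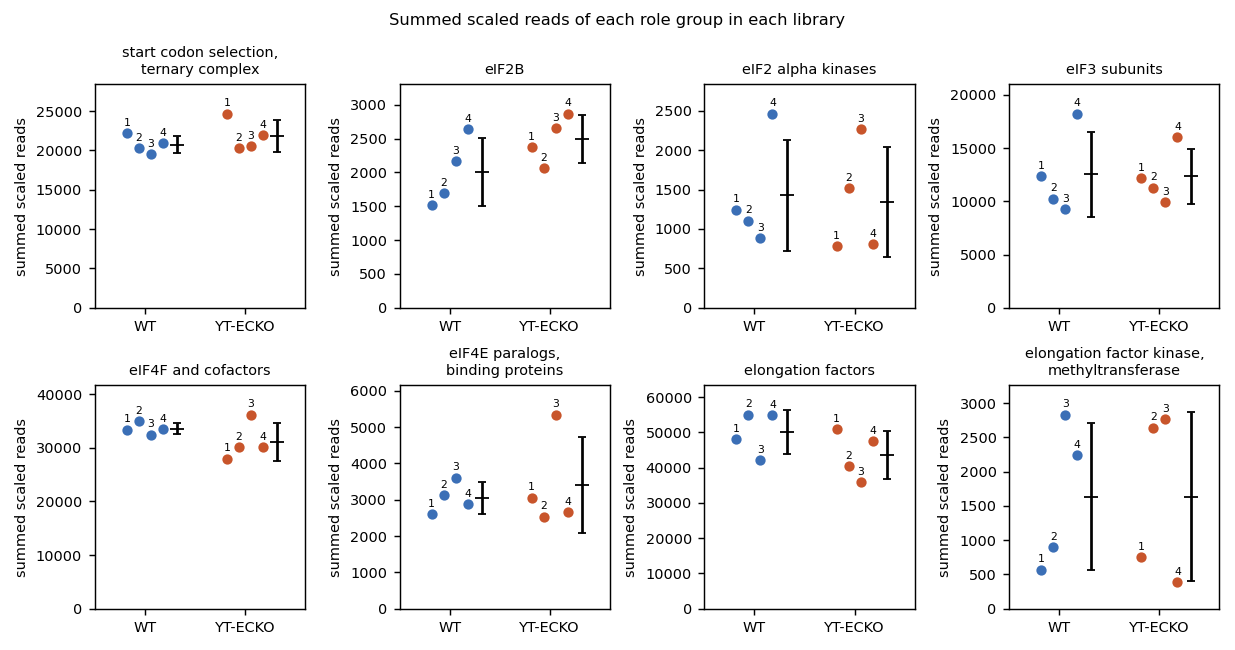
Summed scaled reads (vertical axis, linear, from 0) of the genes of each role group in each WT (blue) and YT-ECKO (orange) library; numbers are replicate numbers, and black bars are the mean with 1 SD. The 2 groups overlap in all 8 panels.

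Of the 8 genes of eIF4F and its helicase cofactors, 5 were lower and 3 higher, and the median log2 difference was -0.17. Their summed level was 31114 ± 3538 scaled reads in YT-ECKO and 33564 ± 1037 in WT (SD, n = 4 each). Eif4e, the cap-binding protein and the target of the 4E-binding proteins, was the only one of the 8 without overlap. It stood at 447, 425, 462 and 393 scaled reads in WT, a narrow range, and at 137, 375, 258 and 332 in YT-ECKO. YT-ECKO 2 lay just under WT 4. The log2 difference was -0.51 ± 0.53 (SE; limma, unadjusted p of 0.347 and adjusted p of 0.990), in a fit in which the error comes from genes of like abundance as well as from Eif4e itself. Eif4e lies on chromosome 3, 138526179 to 138559696, plus strand. Its paralogs overlapped: Eif4e2, which binds the cap more weakly, stood at 1142 ± 421 in WT and 1077 ± 379 in YT-ECKO, and Eif4e3 at 228 ± 109.8 and 206 ± 166.

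The scaffold Eif4g1 stood at 4205, 1948, 4498 and 4977 scaled reads in WT and at 4966, 4096, 6449.6 and 3878 in YT-ECKO, a log2 difference of 0.35 with a 95% interval from -0.33 to 1.04. WT 2 was the lowest and YT-ECKO 3 the highest. Eif4g3, its paralog, stood at 4032 ± 1411 in WT and 4136 ± 1845 in YT-ECKO. Eif4g2 (DAP5), which lacks the eIF4E-binding part and supports cap-independent initiation, stood at 10120.5, 19565, 14452 and 16192 in WT and at 10348, 12486, 16441 and 13644 in YT-ECKO.

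The helicase gene Eif4a1 stood at 4949, 5011, 2825 and 5976 scaled reads in WT and at 4173, 3463, 3428 and 5142 in YT-ECKO. Eif4a2 stood at 6234, 2511, 2619 and 2097 in WT and at 4124, 3456, 593 and 2183 in YT-ECKO, with WT 1 and YT-ECKO 3 far from the rest. Their log2 differences were -0.18 ± 0.32 and -0.50 ± 0.49 (SE). Eif4a3, a paralog that sits in the exon junction complex, stood at 836 ± 374 and 1037 ± 481. The helicase cofactors Eif4b and Eif4h stood at 901 ± 145 and 1154 ± 466 in WT and at 767 ± 335 and 1218 ± 354 in YT-ECKO (SD, n = 4 each).

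The 4E-binding proteins, inhibitors of eIF4E, were scarce. Eif4ebp1 was above 0 in WT 3 (172 scaled reads), WT 4 (6.96) and YT-ECKO 3 (6.88) and listed at 0 in the other 5 libraries. Eif4ebp2 stood at 297, 15.8, 376 and 209 in WT and at 0, 664, 523 and 291 in YT-ECKO, a log2 difference of 0.35 ± 0.65 (SE). Eif4ebp3 was listed at 0 in all 4 WT libraries and in YT-ECKO 1, and stood at 47.0, 192 and 139 in YT-ECKO 2 to 4. It was not tested, and it shares exon bases with another gene model on the same strand. Eif4enif1, which encodes the eIF4E transporter, stood at 701, 459, 497 and 633 in WT and at 609.7, 0, 1797 and 36.8 in YT-ECKO. At these levels a value of 0 in single libraries occurred in both groups.

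Several members followed the ribosomal protein genes from library to library, and others ran the other way. Over the 56 tested members, the median rank correlation (Spearman) with the summed ribosomal protein genes was 0.14, against -0.05 for all tested genes. It ranged from -0.90 in Eif5b to 0.90 in Eef1a1. Reads of 81 ribosomal protein genes made up 3.44% of WT 4, 2.81% of WT 2, 2.68% of YT-ECKO 4 and 2.57% of YT-ECKO 1, and 1.80% of WT 3, 1.76% of WT 1, 1.72% of YT-ECKO 2 and 1.36% of YT-ECKO 3. The 4 libraries with the higher shares thus held 2 of each group. These 4 also had the fewest implied reads, 6.66 M to 10.99 M against 12.05 M to 16.8 M in the others. Eef1a1, Eef1b2, Eif3h, Eif3l and Eif6 had their 4 highest values in these same 4 libraries, which was so for 5 of 56 members (8.93%) and for 261 of the 8706 tested genes. Eif4b and Eif4ebp2 had their 4 lowest values there. These were 2 of 56 members, a share near the background of 3.45% (300 of 8706 tested genes). Rn45s, the ribosomal RNA precursor, also took its largest shares in the 4 libraries with more ribosomal protein reads. These shares were 13.1% to 14.8% of the total, against 8.39% to 11.8% in the others. The part of Rn45s or of depth in these values was not tested.

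Eif3h stood at 1524, 3013, 1573 and 3119 scaled reads in WT 2, WT 4, YT-ECKO 1 and YT-ECKO 4, and at 985 to 1261 in the 4 others. Of the 9 members taken here as known TOP messenger RNAs, which were Eef1a1, Eef1b2, Eef1d, Eef1g, Eef2, Eif3e, Eif3f, Eif3h and Eif4b, Eef1a1, Eef1b2 and Eif3h showed this order and the other 6 did not. The TOP list as a whole had 6 lower and 3 higher values (66.7% lower) and a median log2 difference of -0.21. For 79 tested ribosomal protein genes the median was -0.20, and 64 had lower values (81.0%). Over all tested genes 56.9% were lower, with a median of -0.09. The summed ribosomal protein genes overlapped between the groups, at 220565 ± 69804 scaled reads in YT-ECKO and 263664 ± 92212 in WT (SD, n = 4 each). The TOP median moved between -0.29, with 9 of 9 lower, without WT 3 and -0.064 without WT 4.

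**Figure D4:**
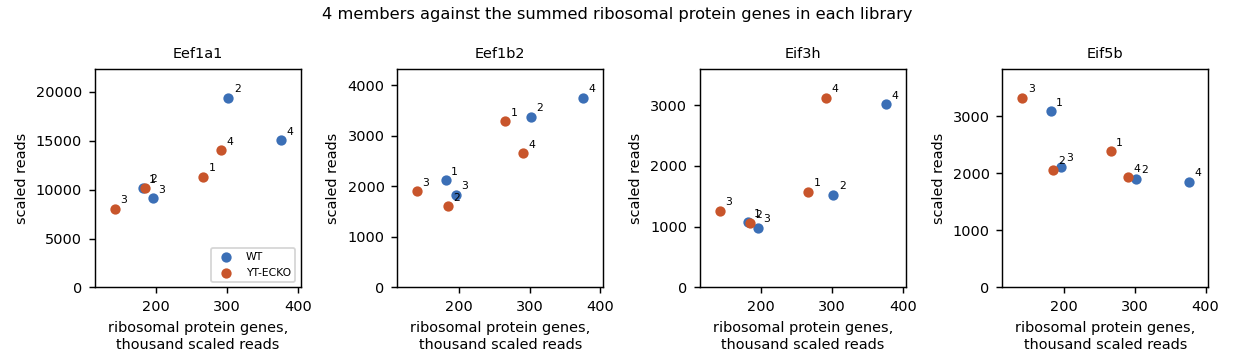
Scaled reads of 4 members (vertical axes) against the summed scaled reads of 81 ribosomal protein genes (horizontal axes, in units of 1000) in each WT (blue) and YT-ECKO (orange) library; numbers are replicate numbers. Eef1a1, Eef1b2 and Eif3h are highest in the 4 libraries with the most ribosomal protein reads, WT 2, WT 4, YT-ECKO 1 and YT-ECKO 4, whereas Eif5b is not.

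The surrounding pathways gave 0 calls as well. Of 17 tested genes of mTORC1 and its translation kinases, 12 were higher and 5 lower in YT-ECKO, and the median log2 difference was 0.25. The background for this and the next 3 lists was 56.9% lower and a median of -0.09 over all tested genes. Rheb, the GTPase that activates mTORC1, stood at 489, 364, 572 and 648 scaled reads in WT and at 75.5, 283, 71.4 and 210.3 in YT-ECKO, without overlap (log2 difference -1.22 ± 0.56, SE, with a limma adjusted p of 0.882). Deptor, an inhibitor of the complex, stood at 3.65, 146, 0 and 3.98 in WT and at 692, 376, 619 and 4.61 in YT-ECKO (1.52 ± 0.61, SE, with a limma adjusted p of 0.823). YT-ECKO 4 was among the low libraries. Deptor passed the filter mainly through the other YT-ECKO libraries, and was not tested without WT 2, YT-ECKO 1, YT-ECKO 2 or YT-ECKO 3.

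Of 14 tested targets and phosphatases of the integrated stress response, 7 were higher and 7 lower, and the median log2 difference was -0.02. Ddit4 (REDD1), a stress-induced inhibitor of mTORC1, stood at 1934, 1063, 1559 and 1259.8 scaled reads in WT and at 4176, 2982, 2171 and 1985 in YT-ECKO, without overlap (0.88 ± 0.37, SE, with a limma adjusted p of 0.872). Aldh18a1, a proline synthesis gene, did not overlap either, with 0, 40.2, 24.2 and 0 in WT and 175, 200.4, 52.2 and 248 in YT-ECKO. These were 2 of 14 tested genes (1.33% of all tested genes had no overlap and higher values), and Aldh18a1 passed the filter mainly through the YT-ECKO libraries.

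Of 20 tested genes of cytosolic aminoacyl-tRNA synthetases and their scaffolds, 10 were higher and 10 lower. Sars, the seryl-tRNA synthetase gene, stood at 308, 1098, 632 and 716 scaled reads in WT and at 2219, 2377, 1969 and 758 in YT-ECKO, with YT-ECKO 4 within the WT range (1.25 ± 0.46, SE, with a limma adjusted p of 0.747). Kars, the lysyl-tRNA synthetase gene, stood at 1385 ± 294 in WT and 895 ± 548 in YT-ECKO (SD, n = 4 each). Of 12 tested genes of termination, recycling and poly(A) binding, 7 were lower and 5 higher. The ribosome recycling factor Abce1 stood at 282, 221, 375 and 259 in WT and at 0, 0, 43.0 and 439 in YT-ECKO, where YT-ECKO 4 was the highest of all 8. Hbs1l, a ribosome rescue factor, stood at 229 ± 138 in WT and 581 ± 361 in YT-ECKO. These genes lay on both sides of 0, as the members did.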

How the data were processed

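RNA of 8 libraries was read from the authors' deposited tables of log2 values, 1 per library, with no value below 0. The submitters' processing notes name mm10 as the build and Bowtie2 and edgeR as tools, without versions. Neither the counting tool nor the annotation or strand setting is stated. Judged from the values, the deposited log2 values hold reads brought to 1 common depth, because 88.3% to 100% of linear values below 12 were whole multiples, to within 0.1, of a step particular to each library. A listed 0 was kept at 0. Implied depth was 6.66 M to 16.8 M reads, and low values are correspondingly uncertain.

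Genes reaching 10 scaled reads in 4 or more libraries were tested with limma 3.58.1 (R 4.3.3), trended and robust, on log2 of scaled reads plus a pseudocount of 2 to the power of 7, without covariates, over all 8706 genes, with Benjamini-Hochberg adjustment and a threshold of 0.05. The functions were tested on simulated data. Positions and exon lengths are from GENCODE M21 (GRCm38), and start site windows from RefSeq (GRCm38.p6), which held 48 of 62 members by symbol. The members and lists were chosen with earlier results of these data known. Genes named are the 2 most abundant and the 2 of smallest p in each role list, and every gene without overlap. Also named are 8 regulators in every case, the paralogs of named genes, and in each pathway list the 2 of smallest p. Values or fitted differences are given for most other members. Alternatives covered the pseudocount, the filter, the scaling, voom, the replicate number as a block and each library left out.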

Additional observations from a re-analysis of the deposited data

Results flagged for a closer look

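Within groups of 4 libraries, 1 library stood far from the other 3 in 6 of 66 groups of named members (gap to the nearest value over the whole range above Dixon's 95% critical value, which chance gives in about 1 of 20 groups). That rate assumes normally distributed values. The 66 include Eef1a2 in WT and in YT-ECKO and Eif4ebp3 in WT, listed at 0 throughout, which could not be flagged. For Eef1e1 and Eif4ebp1 in YT-ECKO, 3 values of 0 fix the ratio at 1 whatever the other value. Eif3k stood at 5777 scaled reads in WT 4, against 1856 to 2032 in the other WT libraries, and Eif4a2 at 6234 in WT 1, against 2097 to 2619. Eif2b4 stood at 1337 in YT-ECKO 4, against 610.1 to 668 in the other YT-ECKO libraries. Eef1e1 stood at 36.1 in YT-ECKO 3 and was listed at 0 in the other 3. Eif4ebp1 stood at 172 in WT 3, against 0 to 6.96, and at 6.88 in YT-ECKO 3, where the other 3 were at 0.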

How the results depend on the processing

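No translation factor passed under any of the 10 alternative settings or the 8 fits with a library left out (lowest limma adjusted p of 0.651). Over all genes, 3 passed, against 0 with a pseudocount of 1, without a filter or with voom, 5 with the replicate block, and 0 to 6 with a library left out. The replicate numbers shared by the titles did not pair the libraries. Deviations from the group means correlated at -0.030, -0.043, 0.066 and 0.076 in same-numbered libraries, and at -0.080 to 0.066 in differently numbered ones. With the block 0 members passed, while 2 had an unadjusted p under 0.05 (limma), Eif2b4 being lost. The count of members without overlap was 3 to 5 with a library left out, reaching 5 without WT 3 (Eif1ad and Eif2b4 added) or YT-ECKO 1 (Eif2ak2 and Eif3k added), and the count at an unadjusted p under 0.05 was 2 to 5, with 5 without YT-ECKO 3.

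Of 30 tested members named by the rule above, 20 kept their direction in each fit that tested them, although Eef1e1 was tested in 17 and Eif2b3 in 13 of 18. The 30 were chosen in part by smallest p and by lack of overlap, so their share does not stand for all 56 tested members. Outside the 30, some members kept their direction, such as Eif3a, and others turned, such as Eif5a and Eif6. The log2 difference of Eif4ebp2 was -0.49 with a pseudocount of 1, that of Eif2ak3 0.026 with 2 to the power of 9, that of Eif4g3 -0.0084 with upper quartile scaling and that of Eif4e2 0.0073 with voom. With a library left out the sign of 10 of the 30 turned, from -0.066 to 0.50 for Eef2kmt, -0.23 to 0.37 for Eif2b2, -0.26 to 0.13 for Eif4e2, -0.029 to 0.91 for Eif4ebp2, -0.25 to 0.23 for Eif4g3, -0.071 to 0.20 for Eif3f, -0.56 to 0.43 for Eif2ak3, -0.062 to 1.02 for Eif2ak4, -0.81 to 0.042 for Eif4a2 and -0.45 to 0.029 for Eif4e3. The cause was not tested. Eef1d ranged from -1.04 to -0.78, Eif4e from -0.74 to -0.27 and Eef1e1 from -6.40 (voom) to -0.34, and the stricter filter left Eef1e1 out and 2 members without overlap. With a library left out, 28 (without YT-ECKO 1) to 38 (without YT-ECKO 4) members had lower values, with medians of -0.026 and -0.18. The medians of the role lists other than elongation and eIF4F, whose median ran from -0.23 to -0.058, changed sign. At 6.66 M to 16.8 M implied reads, a listed 0 does not show that a transcript was absent.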
